A study of Mus musculus with 12 samples.

Results

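Mitosis genes are those whose products condense the chromosomes, build the spindle, hold or release the anaphase brake and divide the cell. The 37 members were taken by gene symbol from a list of mitotic genes, and all 37 were found among the 21851 rows with a gene symbol. The rule itself uses no measured value, but the list was chosen with earlier results of these data known. RNA from cells of the peritoneal lavage was sequenced in 12 libraries, 3 in each of 4 groups of C57BL/6J mice. The groups were lactoferrin knockout mice given LPS, wild-type mice given LPS, lactoferrin knockout mice given PBS and wild-type mice given PBS, each by injection into the peritoneum. LPS is the bacterial lipopolysaccharide, and lactoferrin is an iron-binding protein of neutrophil granules encoded by Ltf. Dose, time from injection to lavage, age, sex and the kind of knockout allele are not stated in the labels used here. Nothing in the labels says that the 3 libraries of a group came from separate mice, so p-values measure the spread between these libraries.

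Entry into mitosis is driven by cyclin-dependent kinase 1 bound to cyclin A or B, and the Aurora and Polo kinases act with it. Kinetochores attach the chromosomes to spindle microtubules, and the spindle checkpoint withholds Cdc20 from the anaphase-promoting complex (APC/C) until all are attached. The APC/C then marks securin and cyclin B for destruction, and a ring of actin and myosin closes at the spindle midzone. Transcripts of these genes are low in resting cells and rise late in the cell cycle, so in a mixed lavage they stand mainly for the dividing cells. Resident peritoneal macrophages and B cells are known to renew in place by division, whereas mature neutrophils do not divide.

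Many mitotic promoters carry CCAAT boxes bound by NF-Y and a cell cycle genes homology region (CHR) bound by the MuvB complex with B-MYB or a pocket protein. RefSeq promoters of GRCm38.p6, from 250 bases before to 50 after the start, were matched by symbol for 32 of 37 members, with none for Ccna2, Pbk, Aurkb, Tpx2 and Kif20a. The windows below run from 130 bases before to 30 after the start and show what those elements look like in 4 members that were lower under LPS in both genotypes and 4 that did not pass the test in either. They lie at chr5:30666756-30666915 for Cenpa and chr1:191821343-191821502 for Nek2, both on the plus strand. On the minus strand they lie at chr15:99651627-99651786 for Racgap1, chr9:61946770-61946929 for Kif23, chr11:99024160-99024319 for Top2a, chr7:135716350-135716509 for Mki67, chr10:69352883-69353042 for Cdk1 and chr4:118437314-118437473 for Cdc20. Capitals mark a CHR (TTTGAA or TTCGAA) or a CCAAT box on either strand, so that ATTGG is a CCAAT box and TTCAAA a CHR read on the other strand. The Nek2 window holds CCAAT boxes without a CHR and the Mki67 window the reverse, while the other 6 hold both. Mki67 has 3 CCAAT boxes outside the printed window, at -188, -166 and -141 bases from the start, whereas Nek2 has no CHR in the whole promoter.
Cenpa: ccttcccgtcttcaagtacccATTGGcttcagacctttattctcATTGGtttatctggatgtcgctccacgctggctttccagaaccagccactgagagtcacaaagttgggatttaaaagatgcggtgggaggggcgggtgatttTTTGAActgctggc
Racgap1: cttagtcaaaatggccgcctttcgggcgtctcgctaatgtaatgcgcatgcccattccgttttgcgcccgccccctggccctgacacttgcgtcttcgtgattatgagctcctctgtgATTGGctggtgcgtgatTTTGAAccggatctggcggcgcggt
Kif23: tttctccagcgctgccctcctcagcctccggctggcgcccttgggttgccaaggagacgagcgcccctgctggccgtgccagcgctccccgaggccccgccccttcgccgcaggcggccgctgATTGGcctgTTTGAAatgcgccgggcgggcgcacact
Nek2: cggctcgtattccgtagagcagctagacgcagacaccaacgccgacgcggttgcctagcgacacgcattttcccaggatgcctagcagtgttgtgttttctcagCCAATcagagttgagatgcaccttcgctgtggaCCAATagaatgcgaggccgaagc
Top2a: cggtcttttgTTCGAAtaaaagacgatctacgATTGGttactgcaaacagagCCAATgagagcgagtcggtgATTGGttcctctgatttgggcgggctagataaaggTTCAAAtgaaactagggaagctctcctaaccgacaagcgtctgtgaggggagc
Mki67: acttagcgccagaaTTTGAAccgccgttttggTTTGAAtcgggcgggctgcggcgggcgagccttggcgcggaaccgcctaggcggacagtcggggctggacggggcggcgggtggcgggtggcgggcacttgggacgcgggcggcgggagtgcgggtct
Cdk1: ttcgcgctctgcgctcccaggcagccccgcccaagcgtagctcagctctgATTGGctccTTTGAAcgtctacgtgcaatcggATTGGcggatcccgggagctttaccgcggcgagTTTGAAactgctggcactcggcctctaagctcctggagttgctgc
Cdc20: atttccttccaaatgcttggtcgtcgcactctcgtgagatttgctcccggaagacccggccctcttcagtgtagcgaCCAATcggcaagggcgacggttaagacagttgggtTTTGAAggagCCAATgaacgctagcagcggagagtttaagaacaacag

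The CHR letters stood in 24 of the 32 member promoters (75%), against 19.4% of the 27025 promoters in the table. A CCAAT box stood in 24 of 32 (75%), against 37.9% of all promoters, and both elements in 21 of 32 (65.6%), against 7.7%. At least 2 CCAAT boxes were found in 17 of 32 (53.1%), against 12.2% of all promoters. In 11 members a pair of boxes stood 28 to 38 bases apart. That spacing was not counted over all promoters, so it cannot be read as particular to the members. The matches of the CCAAT box had a median position 66 bases before the start, while those of the CHR had a median position of 3 bases after it and 17 of 33 lay past it. In the narrower window from 150 bases before the start up to it, CHR letters were found in 8 of 32 members (25%), against 9.89% of all promoters. A strict E2F site (TTTGGCGC or TTTCGCGC, both strands, each motif searched on its own so that matches may overlap) was present in 1 of 32 members (3.12%) and 0.833% of all promoters. Among the 32 S phase genes with a promoter, the shares were 28.1% for the E2F site and 18.8% for the CHR. Of the 7 members with a promoter that were lower under LPS in at least 1 genotype, 5 (71.4%) held a CHR, against 11 of the 13 other tested members (84.6%). In the narrower window the same counts were 0 of 7 and 6 of 13 (46.2%), and neither difference was tested. The 0 depends on where the start is placed. A CHR begins 3 bases after it in Kif23, 5 in Ccnb2, 6 in Racgap1 and 17 in Cenpa. In Prc1 a CHR begins at -5 and runs across the start. A match is a run of letters, and whether a protein sits there was not measured.

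**Figure D1:**
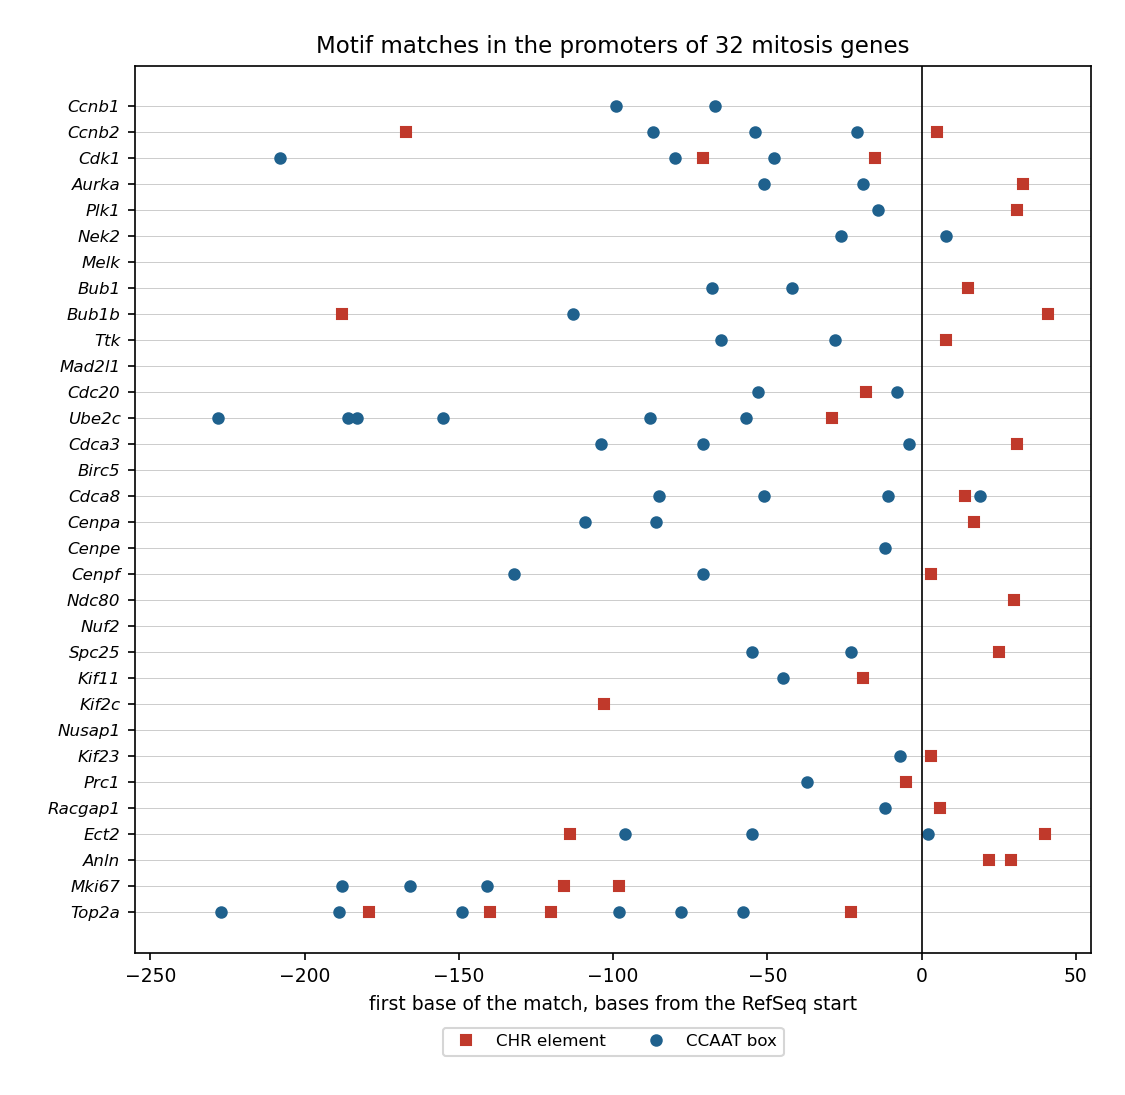
Position of CHR letters (squares) and CCAAT boxes (circles) on either strand in the RefSeq promoters of 32 mitosis genes, in bases from the start (x axis), grouped by role from cyclins at the top. CCAAT boxes have a median position 66 bases before the start and CHR letters 3 bases after it, and Melk, Mad2l1, Birc5, Nuf2 and Nusap1 have neither.

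Library totals lay between 343874 and 388129 FPKM (sequenced fragments scaled by transcript length and library size), with 13921 to 14574 genes above 0. The files hold no read totals, so the depth behind a value is unknown. Ltf, the targeted gene, had 0.117, 0.0832 and 0.0699 FPKM in knockout LPS libraries, against 0.176, 1.33 and 0.275 FPKM in wild-type LPS libraries. In the PBS libraries it had 0.183, 0.258 and 0.213 FPKM in the knockout, against 1.89, 1.23 and 1.16 FPKM in wild type. Ltf was thus low but above 0 in the knockout, and the groups did not overlap under either treatment. Summed markers of large peritoneal macrophages lay between 1655 and 5967 FPKM and those of B cells between 166.7 and 1240 FPKM, so markers of both were present in every library. Mature neutrophil markers summed to 1385 to 3387 FPKM in PBS libraries. Under LPS they summed to 740.6 to 2710 FPKM in the knockout and 189.5 to 300.7 FPKM in wild type. Erythroid markers, those of red cell precursors and red cells, summed to 1887 FPKM in knockout LPS replicate 1 and 2227 FPKM in wild-type LPS replicate 2, against 5.33 to 330 FPKM in the other 10 libraries. Each of these 2 libraries had the middle mitosis sum of its own group of 3, and counts without them are given below.

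All 37 members were above 0 in every library, at low levels. Ube2c, the conjugating enzyme that starts ubiquitin chains for the APC/C, was highest with a mean of 6.67 FPKM over the 12 libraries. Top2a (5.93), Mki67 (4.36), Racgap1 (4.03) and Mad2l1 (3.23) followed, and Cenpf was lowest at 0.332 FPKM. The 12 members below a mean of 1 FPKM, which were not entered into the main test, were Cdca3 (0.993), Nuf2, Birc5, Ect2, Ndc80, Melk, Bub1, Anln, Kif2c, Cenpe, Ttk and Cenpf. The remaining 25 were tested by limma on log2(FPKM + 1) among 9841 genes, and every difference below is on that scale, which understates the change of genes this low.

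The level of the whole set varied between libraries of 1 group. The 37 members summed to 53.2, 47.0 and 68.2 FPKM in knockout LPS libraries, against 66.9, 92.0 and 66.7 FPKM in knockout PBS libraries. In wild type the sums were 70.0, 66.2 and 56.2 FPKM under LPS, against 59.8, 95.6 and 74.2 FPKM under PBS. Replicate 2 stood above the other 2 libraries of its group in both PBS groups, and the LPS and PBS sums overlapped in each genotype. Knockout PBS replicate 2 held the highest value of its group in 34 of 37 members and wild-type PBS replicate 2 in 28 of 37. The median member stood at 1.39 times the mean of the other 2 libraries in the first of these and 1.43 times in the second, beside 0.974 and 0.961 times for the median gene of all tested. These libraries also held the lowest B cell marker sums of their groups, with 732.8 FPKM in knockout PBS replicate 2 and 596.4 FPKM in wild-type PBS replicate 2. Their erythroid marker sums were the highest of their groups, with 44.3 FPKM in knockout PBS replicate 2 and 329.9 FPKM in wild-type PBS replicate 2. Whether either marker sum goes with the mitosis level was not tested. At the other end, wild-type PBS replicate 1 was lowest of its group in 29 of 37 members, wild-type LPS replicate 3 in 26 and knockout LPS replicate 2 in 22. The members thus moved together from library to library within a group.

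**Figure D2:**
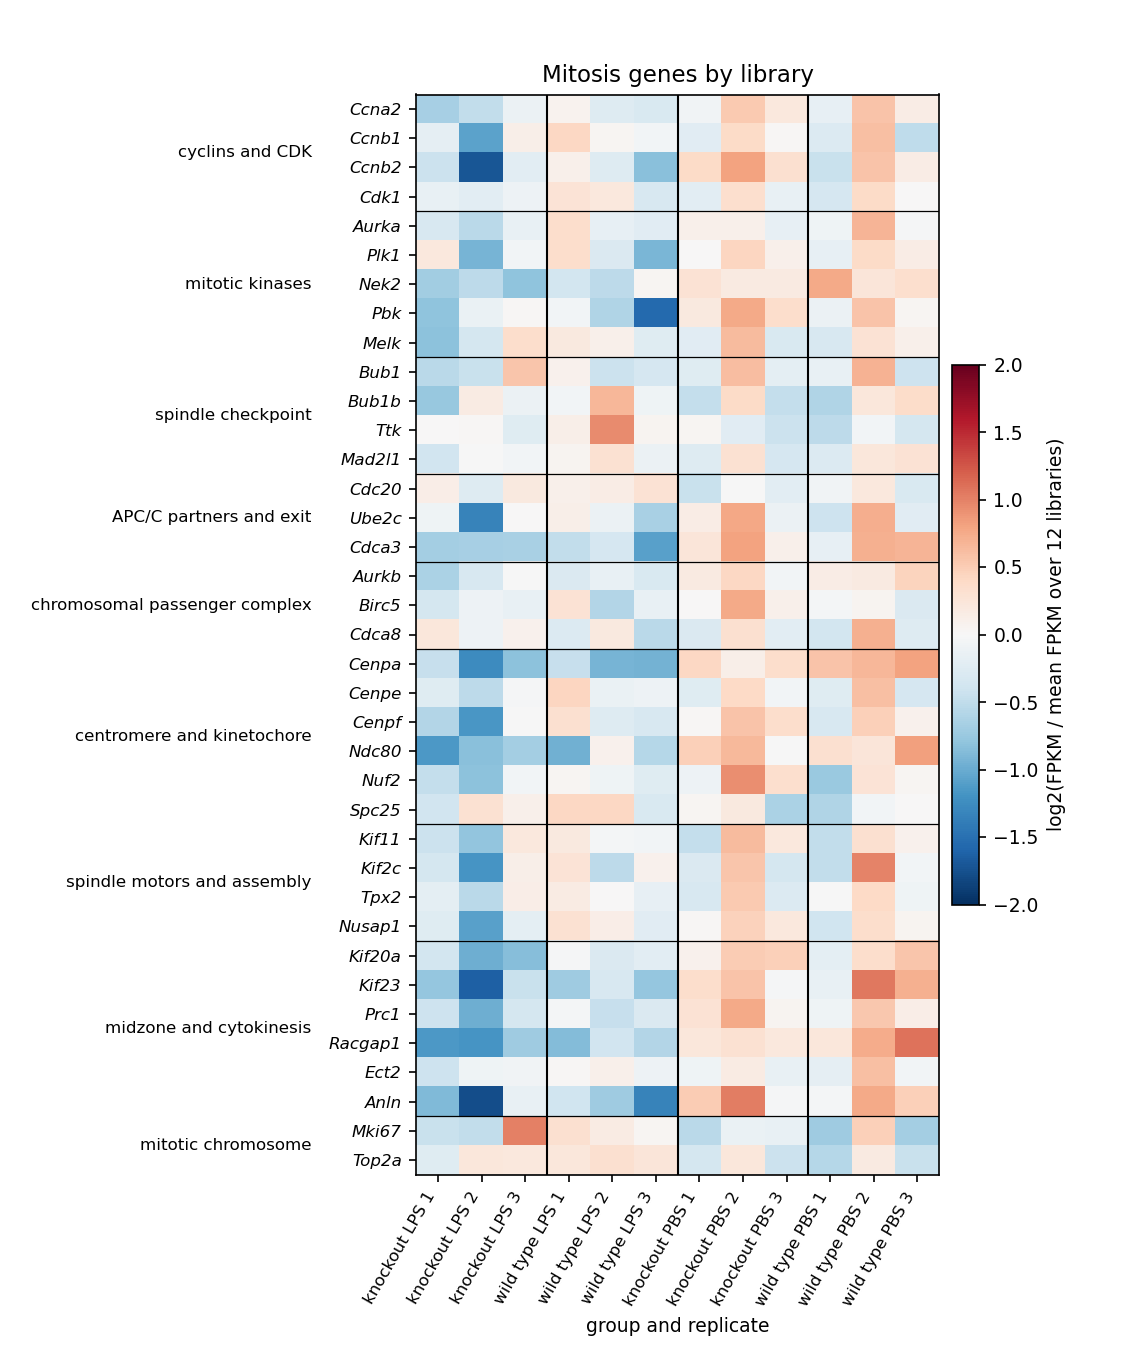
Each cell is the log2 ratio of a member's FPKM to its mean over the 12 libraries (colour scale from -2 to 2), with members in rows by role and libraries in columns by group. The PBS replicate 2 columns of both genotypes are redder than their neighbours in most rows, and Cenpa, Racgap1 and Kif23 are bluer in all 6 LPS columns than in most PBS columns.

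The first comparison asks how LPS altered these genes within each genotype. In the knockout 9 of the 25 tested members were lower under LPS (36%) and 0 were higher, while 33.3% of all tested genes were lower, 19.9% higher and 53.2% one or the other. In wild type 5 of 25 were lower (20%) and 0 higher, while 37.4% of all tested genes were lower, 24.8% higher and 62.2% one or the other. The share of members that were lower was thus close to the background in the knockout and below it in wild type, and no member was called higher in either. The median difference over the 25 members was -0.29 in the knockout and -0.17 in wild type, beside -0.12 and -0.11 over all tested genes. Cenpa, Racgap1, Kif23 and Nek2 were lower in both genotypes, which is 44.4% of the knockout calls and 80% of the wild-type calls. Without knockout LPS replicate 2 or without knockout PBS replicate 2 the knockout count was 5, and without wild-type PBS replicate 2 the median of the members in wild type was 0.04. With upper-quartile scaling 2623 genes were higher and 2631 lower in the knockout, and 3130 and 3060 in wild type, in place of 1958 and 3277, and 2443 and 3680. The members lower under LPS were then 7 in the knockout and 4 in wild type. In bulk RNA, fewer dividing cells and less RNA per cell cannot be told apart.

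Of the 4 members lower in both genotypes, the 2 with the largest differences, Racgap1 and Cenpa, act at the spindle midzone and the centromere. Cenpa, the histone H3 variant that marks the centromere, had 1.97, 1.14 and 1.53 FPKM in knockout LPS libraries, against 3.61, 2.96 and 3.46 FPKM in knockout PBS libraries. The wild-type values were 1.98, 1.43 and 1.42 FPKM under LPS, against 4.05, 4.29 and 4.76 FPKM under PBS. Every LPS library lay below every PBS library of either genotype. Cenpa fell by 0.78 ± 0.14 (SE) in the knockout (adjusted p = 0.000675 by limma) and by 1.05 ± 0.14 in wild type (adjusted p = 6.64e-05 by limma).

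Of the midzone and cytokinesis genes 4 were tested, and all 4 fell in the knockout and 2 in wild type. Of all tested genes, 33.3% were lower in the knockout and 37.4% in wild type. Since the members move together from library to library, these are not 4 separate observations. Racgap1, the GTPase-activating subunit of centralspindlin, had 1.81, 1.78 and 2.45 FPKM in knockout LPS libraries, against 4.69, 4.99 and 4.68 FPKM in knockout PBS libraries. Wild-type libraries had 2.20, 3.08 and 2.67 FPKM under LPS, against 4.72, 6.70 and 8.53 FPKM under PBS. The groups stood apart in both genotypes, with a wide spread among the wild-type PBS libraries. The difference was -0.95 ± 0.17 in the knockout (adjusted p = 0.000785 by limma) and -1.04 ± 0.17 in wild type (adjusted p = 0.000292 by limma).

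Kif23, the kinesin subunit of the same complex, had 0.699, 0.384 and 0.873 FPKM in knockout LPS libraries, against 1.52, 1.78 and 1.18 FPKM in knockout PBS libraries. Wild-type libraries had 0.731, 0.958 and 0.700 FPKM under LPS, against 1.07, 2.49 and 1.95 FPKM under PBS. No LPS library reached the lowest PBS library of its genotype. It fell by 0.60 ± 0.19 in the knockout (adjusted p = 0.019 by limma) and by 0.63 ± 0.19 in wild type (adjusted p = 0.0124 by limma). The knockout call was lost without knockout LPS replicate 2, knockout PBS replicate 1 or knockout PBS replicate 2.

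Prc1 bundles the antiparallel microtubules of the midzone, and Kif20a, also a kinesin, brings regulators there. Prc1 had 1.33, 0.895 and 1.39 FPKM in knockout LPS libraries, against 2.16, 2.99 and 1.84 FPKM in knockout PBS libraries, with no overlap. The difference was -0.59 ± 0.16 (adjusted p = 0.00841 by limma). In wild type the libraries overlapped, with 1.73, 1.28 and 1.44 FPKM under LPS, against 1.68, 2.56 and 1.95 FPKM under PBS, and the difference of -0.29 ± 0.16 did not pass (adjusted p = 0.123 by limma). Kif20a had 0.909, 0.598 and 0.652 FPKM in knockout LPS libraries, against 1.25, 1.67 and 1.62 FPKM in knockout PBS libraries, also with no overlap. It fell by 0.55 ± 0.13 in the knockout (adjusted p = 0.00493 by limma). Its wild-type libraries overlapped narrowly, with 1.16, 0.954 and 1.02 FPKM under LPS, against 1.02, 1.49 and 1.72 FPKM under PBS (-0.23 ± 0.13, adjusted p = 0.155 by limma). Rccd1 and Cdc23, which overlap exons of Prc1 and Kif20a on the opposite strand, differed by -0.03 and 0.06 in the knockout and did not pass.

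**Figure D3:**
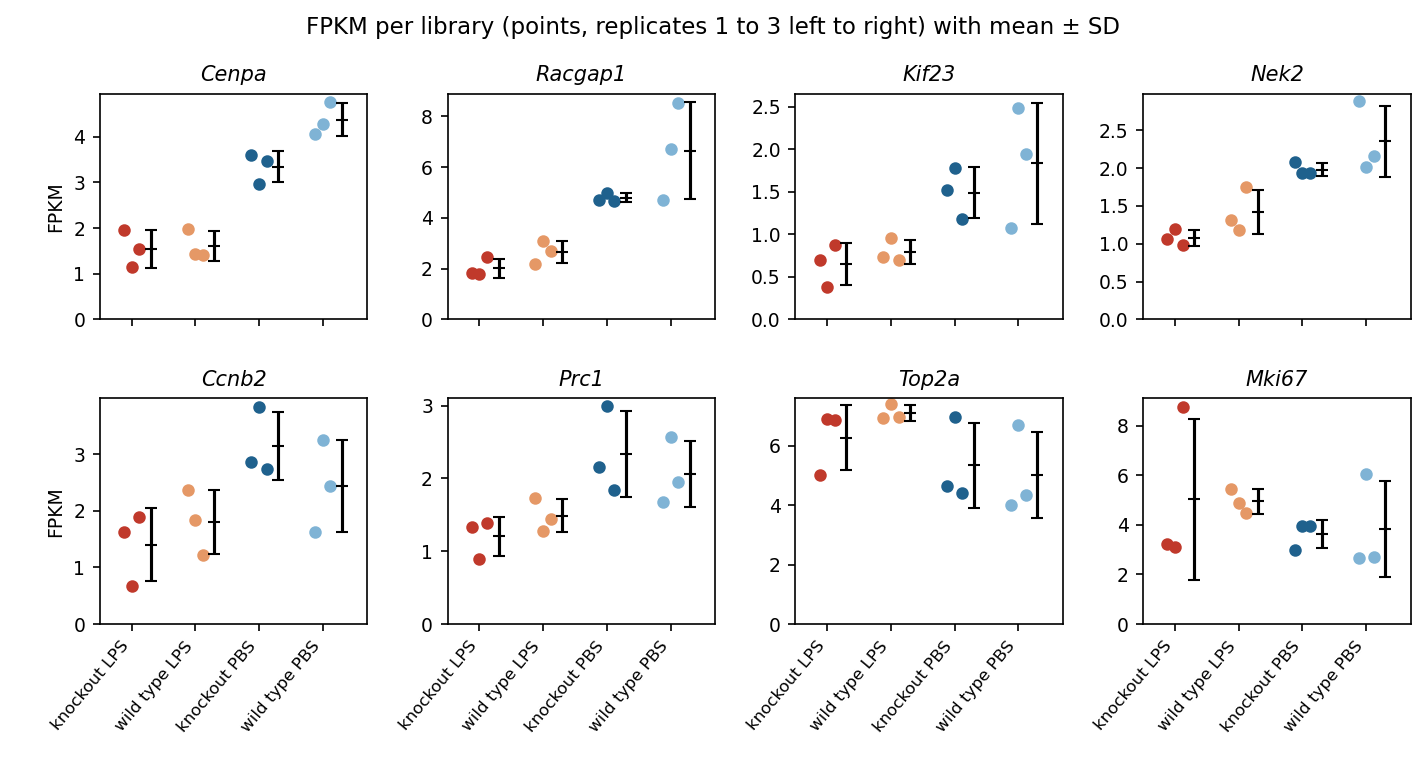
FPKM in each library (points) with the group mean ± SD (bars, n = 3) for 8 mitosis genes in knockout LPS, wild-type LPS, knockout PBS and wild-type PBS libraries. Cenpa, Racgap1, Kif23 and Nek2 lie lower under LPS in both genotypes, while Top2a and Mki67 do not, and 1 knockout LPS library holds the highest Mki67 value (8.76 FPKM).

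Among the mitotic kinases, 1 of 4 tested genes fell, and it fell in both genotypes. Of all tested genes, 33.3% were lower in the knockout and 37.4% in wild type. Nek2, a kinase that helps to part the centrosomes, had 1.06, 1.19 and 0.982 FPKM in knockout LPS libraries, against 2.08, 1.93 and 1.94 FPKM in knockout PBS libraries. The wild-type values were 1.32, 1.19 and 1.75 FPKM under LPS, against 2.89, 2.01 and 2.16 FPKM under PBS. Neither genotype showed overlap. The difference was -0.52 ± 0.12 in the knockout (adjusted p = 0.0042 by limma) and -0.47 ± 0.12 in wild type (adjusted p = 0.0063 by limma). Pbk, a kinase of mitotic cells, narrowly missed the threshold with -0.42 in the knockout (adjusted p = 0.0764 by limma) and -0.44 in wild type (adjusted p = 0.0567 by limma). Aurka, the Aurora kinase of spindle poles, differed by -0.19 and -0.13 in knockout and wild type, and the Polo kinase Plk1 by -0.22 and -0.20, without passing.

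The cyclins fell in the knockout in 2 of 4 tested genes of their group and in wild type in 0. The shares of all tested genes that were lower were 33.3% and 37.4%. Ccnb2, a B-type cyclin, had 1.63, 0.674 and 1.90 FPKM in knockout LPS libraries, against 2.86, 3.83 and 2.74 FPKM in knockout PBS libraries. The groups did not overlap, and the difference was -0.82 ± 0.24 (adjusted p = 0.0131 by limma). This call was lost without knockout LPS replicate 2, the lowest library, or without knockout PBS replicate 2, the highest. In wild type Ccnb2 had 2.36, 1.83 and 1.23 FPKM under LPS, against 1.62, 3.25 and 2.44 FPKM under PBS, which overlapped (-0.28 ± 0.24, adjusted p = 0.318 by limma).

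Ccna2, the cyclin A of somatic cells, had 1.67, 1.89 and 2.45 FPKM in knockout LPS libraries, against 2.52, 3.82 and 3.07 FPKM in knockout PBS libraries. The groups missed each other narrowly, and the difference was -0.46 ± 0.17 (adjusted p = 0.0361 by limma). The wild-type difference was -0.26 ± 0.17 with overlapping groups (adjusted p = 0.195 by limma). The knockout call held in 14 of 22 other settings and was lost with either other scaling, without a filter, without the 2 erythroid-rich libraries, and without knockout LPS replicate 1 or 2 or knockout PBS replicate 2 or 3. Exosc9, on the opposite strand with 510 shared exonic bases, was higher under LPS in the knockout (0.43 ± 0.09, adjusted p = 0.0029 by limma). In wild type it was also higher (0.88 ± 0.09, adjusted p = 1.99e-05 by limma). Cdk1, the kinase these cyclins switch on, averaged 1.77 ± 0.07 FPKM in knockout LPS and 2.0 ± 0.43 FPKM in knockout PBS libraries (SD, n = 3 each). In wild type Cdk1 averaged 2.09 ± 0.43 FPKM under LPS and 2.04 ± 0.51 FPKM under PBS (SD, n = 3 each), and it did not pass in either (differences of -0.10 and 0.02). Ccnb1, the other B-type cyclin, differed by -0.29 in the knockout and by 0.13 in wild type, neither past the threshold.

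The chromosomal passenger complex corrects wrong attachments and moves to the midzone at anaphase. Its kinase, Aurkb, had 1.10, 1.37 and 1.69 FPKM in knockout LPS libraries, against 1.93, 2.28 and 1.64 FPKM in knockout PBS libraries. In wild type it had 1.40, 1.53 and 1.39 FPKM under LPS, against 1.88, 1.93 and 2.32 FPKM under PBS. The groups overlapped in the knockout and stood apart in wild type. Aurkb fell in wild type by 0.32 ± 0.12 (adjusted p = 0.0403 by limma), a call that held in 10 of 22 other settings. Among single libraries left out, it was lost without any of the 3 wild-type LPS libraries, wild-type PBS replicate 2 or 3, knockout LPS replicate 2 or knockout PBS replicate 1. In the knockout the difference was nearly the same, -0.31 ± 0.12, and just missed the threshold (adjusted p = 0.0533 by limma). Cdca8, the borealin subunit, differed by 0.09 in the knockout and -0.17 in wild type without passing. It shares 232 exonic bases with 9930104L06Rik on the opposite strand. That gene was higher under LPS by 0.29 in the knockout and 0.44 in wild type (adjusted p = 0.0197 and 0.00145 by limma).

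Of the 3 tested genes of spindle motors and assembly, 1 passed as lower in the knockout, beside 33.3% of all tested genes. Nusap1, which binds and bundles spindle microtubules, had 1.22, 0.679 and 1.26 FPKM in knockout LPS libraries, against 1.46, 1.97 and 1.66 FPKM in knockout PBS libraries. The groups did not overlap, and the difference was -0.40 ± 0.16 (adjusted p = 0.0464 by limma), which held in 9 of 22 other settings. Among single libraries left out, that call was lost for all but knockout LPS replicate 3 and the 3 wild-type PBS libraries. In wild type Nusap1 had 1.76, 1.57 and 1.23 FPKM under LPS, against 1.09, 1.84 and 1.49 FPKM under PBS, a difference of 0.03 ± 0.16. Kif11, the motor that pushes the spindle poles apart, differed by -0.26 in the knockout and 0.03 in wild type, and Tpx2, which activates Aurora A on the spindle, by -0.11 and -0.06. Neither passed.

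The checkpoint genes and the APC/C partners had 0 calls, beside 53.2% of all tested genes called in the knockout and 62.2% in wild type. Mad2l1, the checkpoint protein that binds Cdc20, had 2.48, 3.20 and 3.12 FPKM in knockout LPS libraries, against 2.69, 3.97 and 2.55 FPKM in knockout PBS libraries. Its difference was -0.04 ± 0.16 in the knockout and 0.00 ± 0.16 in wild type. Bub1b, which holds the APC/C with Mad2l1, differed by -0.03 and 0.10. Cdc20, the activator that the checkpoint restrains, differed by 0.17 ± 0.13 in the knockout and 0.16 ± 0.13 in wild type. Ube2c had 6.30, 2.63 and 6.67 FPKM in knockout LPS libraries, against 7.41, 11.4 and 6.13 FPKM in knockout PBS libraries. With this spread its difference of -0.63 ± 0.34 did not pass (adjusted p = 0.14 by limma), and in wild type it was -0.22 ± 0.34. Spc25, a subunit of the NDC80 complex that grips microtubules, differed by 0.06 in the knockout and 0.20 in wild type and did not pass.

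Top2a and Mki67 coat or untangle the mitotic chromosomes and are often used to mark dividing cells. Top2a, topoisomerase II alpha, had 5.03, 6.915 and 6.88 FPKM in knockout LPS libraries, against 4.65, 6.97 and 4.40 FPKM in knockout PBS libraries. Wild-type libraries had 6.923, 7.40 and 6.98 FPKM under LPS, against 4.01, 6.68 and 4.34 FPKM under PBS. The wild-type groups did not overlap and the knockout groups did. The difference was 0.46 ± 0.19 in wild type (adjusted p = 0.0511 by limma) and 0.21 ± 0.19 in the knockout (adjusted p = 0.363 by limma). Without wild-type PBS replicate 2, Top2a passed as higher under LPS in wild type (adjusted p = 0.00788 by limma). Mki67 encodes the Ki-67 protein of the chromosome surface. It had 3.21, 3.11 and 8.76 FPKM in knockout LPS libraries, against 2.98, 3.96 and 3.95 FPKM in knockout PBS libraries. In wild type it had 5.46, 4.89 and 4.49 FPKM under LPS, against 2.67, 6.06 and 2.72 FPKM under PBS. A single library stood far above the others in knockout LPS and in wild-type PBS, and the differences of 0.26 ± 0.32 in the knockout and 0.37 ± 0.32 in wild type did not pass.

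**Figure D4:**
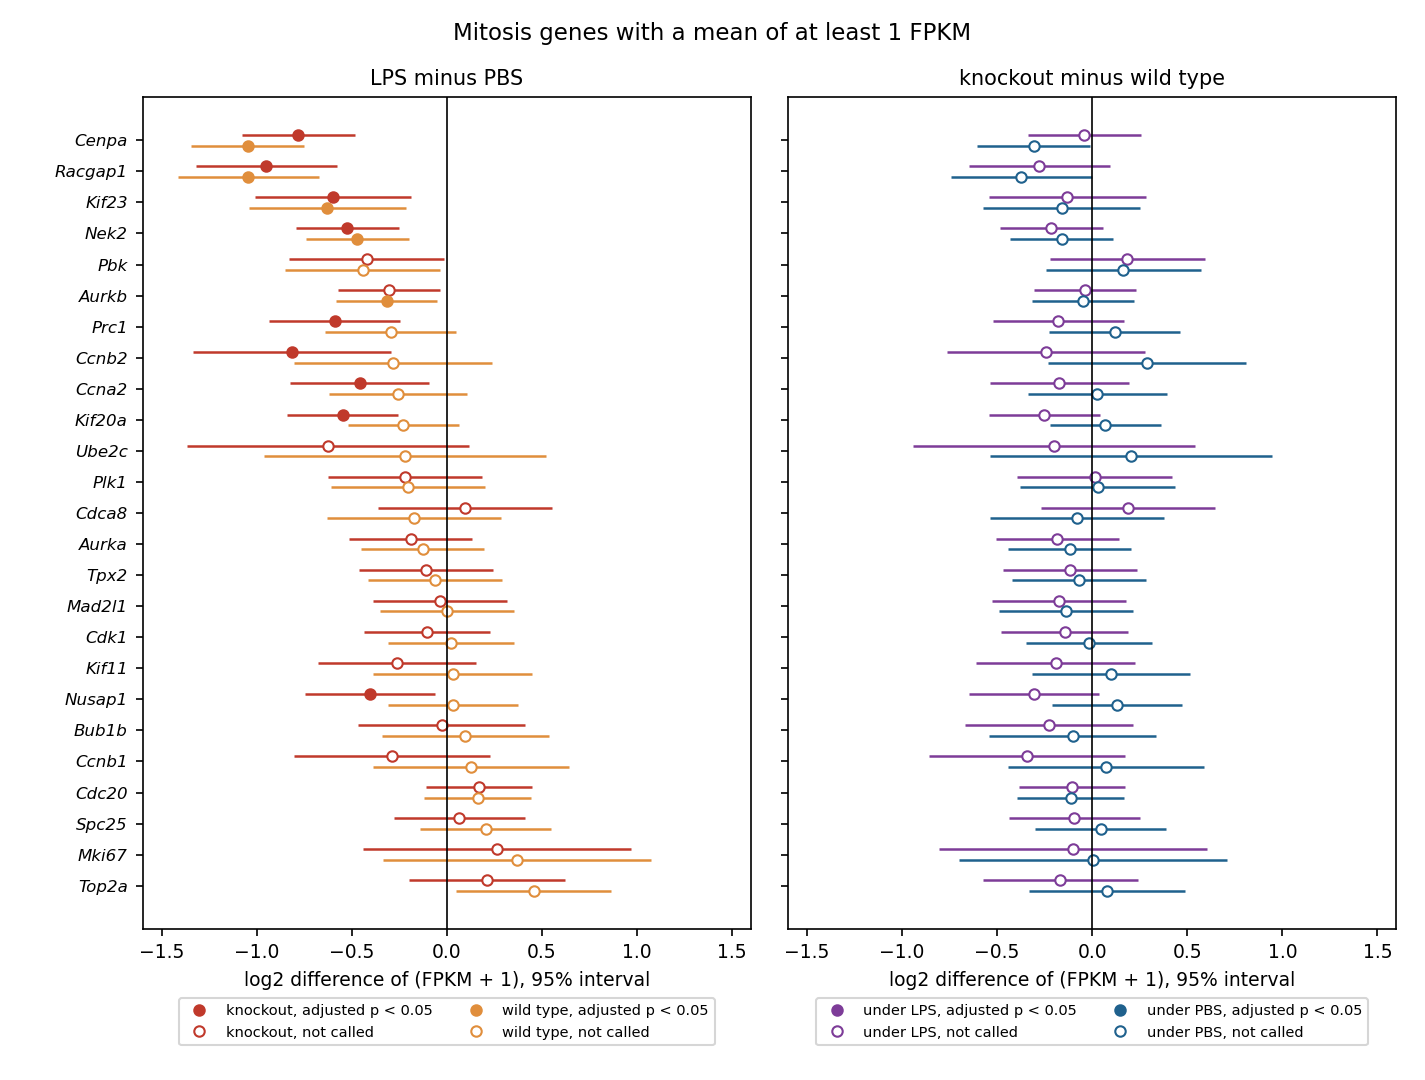
log2 difference of (FPKM + 1) with its 95% interval from limma for the 25 tested members, LPS minus PBS in the knockout and in wild type (left) and knockout minus wild type under LPS and under PBS (right). Filled points have an adjusted p under 0.05: 9 in the knockout and 5 in wild type on the left, all below 0, and 0 on the right.

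Of the 12 members under 1 FPKM, 9 could be tested when the minimum mean was lowered to 0.5 FPKM. Ndc80, the microtubule-gripping subunit of the outer kinetochore, had 0.365, 0.451 and 0.503 FPKM in knockout LPS libraries, against 1.12, 1.26 and 0.803 FPKM in knockout PBS libraries. In wild type it had 0.416, 0.854 and 0.546 FPKM under LPS, against 1.01, 0.954 and 1.43 FPKM under PBS. The groups did not overlap in either genotype, and Ndc80 was lower by limma in both (-0.51, adjusted p = 0.00753 in the knockout, and -0.41, adjusted p = 0.0196 in wild type). Cdca3, which takes part in the destruction of Wee1 at mitotic entry, and Anln, the anillin scaffold of the contractile ring, were also lower in both. Cdca3 differed by -0.50 in the knockout (adjusted p = 0.0147 by limma) and -0.51 in wild type (adjusted p = 0.0116 by limma). For Anln the differences were -0.54 in the knockout (adjusted p = 0.016 by limma) and -0.46 in wild type (adjusted p = 0.0268 by limma). Nuf2, the partner of Ndc80, was lower in the knockout (-0.41, adjusted p = 0.0489 by limma) but not in a fit without any filter (adjusted p = 0.0712 by limma). The other 5 of these members, Birc5, Ect2, Melk, Bub1 and Kif2c, did not pass in either genotype. Ttk, the kinase at the top of the checkpoint, had 0.457, 0.818 and 0.438 FPKM in wild-type LPS libraries, against 0.295, 0.408 and 0.333 FPKM in wild-type PBS libraries, with no overlap. In a fit without a filter it did not pass (0.22, adjusted p = 0.0759 by limma), nor did Cenpe or Cenpf.

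Over all 37 members, 15 were lower under LPS with no overlap of the groups in the knockout and 8 in wild type, while 0 and 2 (Ttk and Top2a) were higher. Among the 25 tested members these were 10 lower in the knockout and 5 in wild type, or 40% and 20%. Of all tested genes, 41.3% were lower with no overlap in the knockout and 38.9% in wild type, and 24.6% and 27.2% were higher.

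The second comparison asks whether loss of lactoferrin altered these genes, and 0 of 25 tested members passed in either treatment. Under LPS 0% of all tested genes passed as well, 744 genes had an unadjusted p under 0.05 by limma, and 0 members were among them. Of the 25 members 22 were lower in the knockout under LPS without passing, with a median difference of -0.17, beside -0.04 over all tested genes, of which 60.1% were lower. Condensin and cohesin genes were lower in 17 of 17 and S phase genes in 30 of 34, also without passing. Under PBS the S phase genes were likewise lower in 30 of 34, the condensin and cohesin genes in 11 of 17 and the members in 12 of 25. Since the members move together from library to library, their count under LPS does not stand for 22 separate observations. The lowest adjusted p under LPS was 0.69 by limma. Kif20a and Top2a, and Ttk among those below 1 FPKM, were lower in every knockout LPS library than in any wild-type LPS library, while 10.4% of all tested genes were lower and 5.03% higher with no overlap. Kif20a differed by -0.25 with a 95% interval from -0.54 to 0.04 and Top2a by -0.17 with an interval from -0.58 to 0.24.

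Under PBS 0.112% of all tested genes passed between genotypes, 0.0203% as higher and 0.0915% as lower, and the median difference over the members was 0.01. Cenpa averaged 3.34 ± 0.34 FPKM in knockout PBS and 4.37 ± 0.36 FPKM in wild-type PBS libraries (SD, n = 3 each), and it was the 1 tested member whose groups did not overlap. Of all tested genes 7.34% were lower and 6.04% higher with no overlap under PBS. The difference of Cenpa was -0.31 with a 95% interval from -0.60 to -0.01, and it did not pass (adjusted p = 0.533 by limma). Racgap1 differed by -0.37 (adjusted p = 0.542 by limma), and these 2 of the 25 members (8%) were the ones with an unadjusted p under 0.05, a share close to that of all tested genes (897, or 9.11%).

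Whether the LPS response differed between the genotypes was tested by the interaction, in which 0 of 25 members and 0.0406% of all tested genes passed. By unadjusted p under 0.05, 0 members and 946 of all tested genes stood out. Ccnb2 had the most negative value, -0.53 with a 95% interval from -1.27 to 0.20, and Nusap1 followed with -0.44 and an interval from -0.92 to 0.05 (adjusted p = 0.543 by limma). The most positive were Cdca8 (0.27) and Cenpa (0.27). The larger number of calls in the knockout is therefore not shown to be a different response, and Ccnb2, Ccna2, Nusap1, Kif20a and Prc1, which passed in the knockout and not in wild type, did not pass this test.

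Genes that act earlier in the cell cycle gave other values under LPS. In a list of 40 genes of S phase and DNA replication, 34 were tested and 25 were higher under LPS in the knockout and 27 in wild type, with 0 lower in either. These are 73.5% and 79.4% of those tested, beside 19.9% and 24.8% of all tested genes. The median difference of the 34 was 0.88 in the knockout and 1.02 in wild type. The 40 genes summed to 510.8, 670.1 and 421.1 FPKM in knockout LPS libraries, against 240.4, 223.1 and 224.2 FPKM in knockout PBS libraries. In wild type the sums were 466.3, 738.3 and 602.0 FPKM under LPS, against 272.5, 225.9 and 255.3 FPKM under PBS. Every LPS library stood above every PBS library in this sum, whereas the mitosis sums overlapped. The helicase subunits led, with Mcm2 (2.07), Mcm5 (2.01) and Mcm3 (1.98) in the knockout. The order within groups also differed: knockout LPS replicate 2 had the highest S phase sum of its group and the lowest mitosis sum, and knockout LPS replicate 3 the reverse.

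**Figure D5:**
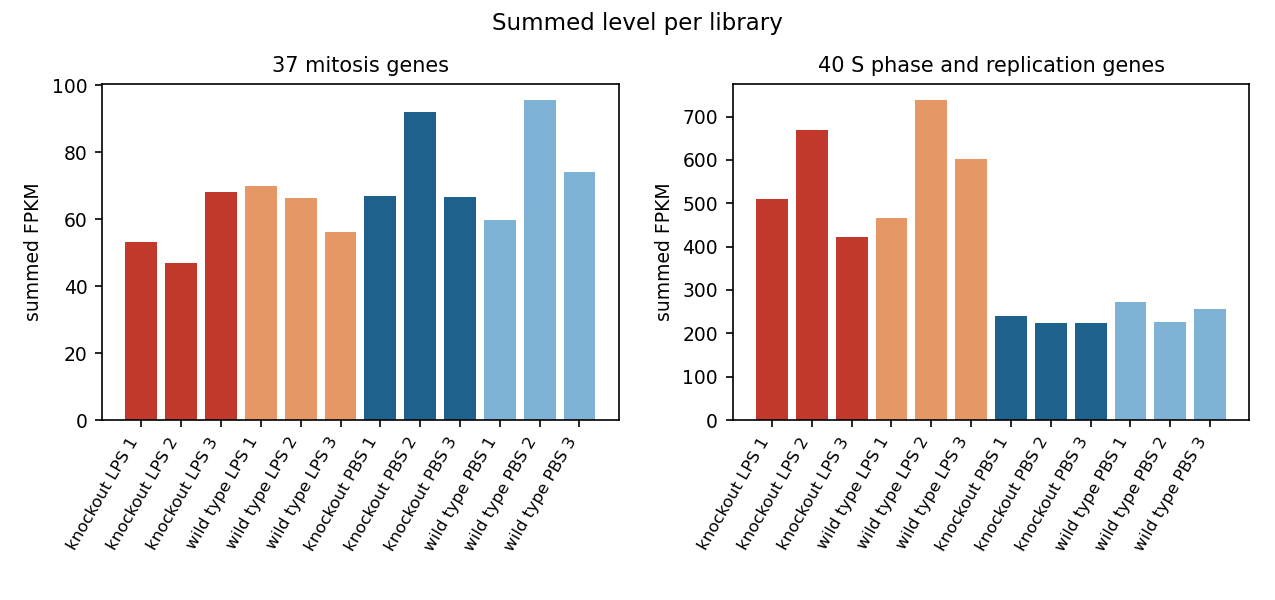
Summed FPKM in each of the 12 libraries for the 37 mitosis genes (left) and for 40 S phase and replication genes (right), bars from 0. The S phase sums lie between 421.1 and 738.3 FPKM in LPS libraries and between 223.1 and 272.5 FPKM in PBS libraries, while the mitosis sums overlap.

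The other G2 and M phase genes, 61 in all, were mixed, with 21 tested. In the knockout 2 were higher (9.52%) and 6 lower (28.6%) under LPS, beside 19.9% and 33.3% of all tested genes. In wild type 4 were higher (19%) and 6 lower (28.6%), beside 24.8% and 37.4% of all tested genes. Cdc25b, the phosphatase that starts Cdk1 at the centrosome, fell by 2.20 ± 0.24 in the knockout and by 2.49 ± 0.24 in wild type (adjusted p = 2.9e-05 and 1e-05 by limma). Espl1, the separase that cuts cohesin, fell by 1.63 in the knockout and 1.51 in wild type, and Trip13, which takes apart checkpoint complexes, rose by 0.67 and 0.84. Pttg1, the securin that restrains separase, fell in wild type (-0.92) and did not pass in the knockout (0.34, adjusted p = 0.392 by limma), with an interaction that did not pass either (1.27, adjusted p = 0.449 by limma).

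Among 19 tested regulators of mitotic transcription (MuvB, MYB, FOXM1, E2F and pocket proteins), 5 were higher and 5 lower in the knockout, and 7 higher and 6 lower in wild type. These are 26.3% and 26.3% in the knockout, and 36.8% and 31.6% in wild type. Of all tested genes, 19.9% were higher and 33.3% lower in the knockout, and 24.8% and 37.4% in wild type. Mybl2, the B-MYB factor that binds MuvB in proliferating cells, rose by 1.47 ± 0.19 in the knockout and by 1.39 ± 0.19 in wild type. E2f5 rose by 1.11 and 1.27, and E2f2 fell by 1.65 and 1.23, each in knockout and wild type. Rbl2, the p130 pocket protein of the resting-cell form of the complex, fell by 0.99 and 1.47, and E2f1 rose by 1.09 and 0.87, in knockout and wild type in that order. Of 16 switch kinases and phosphatases tested, 3 were higher (18.8%) and 4 lower (25%) in the knockout, and 5 (31.2%) and 3 (18.8%) in wild type. Cdc25a, the phosphatase of earlier cell cycle steps, rose by 1.09 and 1.06, while Cdc14b fell by 2.10 in the knockout and by 1.11 in wild type. The interaction of Cdc14b did not pass (-0.99, adjusted p = 0.17 by limma).

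APC/C subunits and coactivators had 1 higher (6.25%) and 1 lower (6.25%) of 16 tested in the knockout, and 4 (25%) and 3 (18.8%) in wild type. Anapc2, its cullin subunit, fell by 0.44 in the knockout and by 0.51 in wild type, and Ube2s, which extends its ubiquitin chains, rose in wild type (0.70) and did not pass in the knockout (0.32, adjusted p = 0.0893 by limma), with no call in the interaction (-0.38). Condensin and cohesin genes had 2 higher (11.8%) and 7 lower (41.2%) of 17 tested in the knockout, and 6 (35.3%) and 7 (41.2%) in wild type. Smc2 was higher (0.38 and 0.45) and Ncapd2 lower (-0.44 and -0.52) in both. Genes of p53, p21 and arrest had 3 higher (15.8%) and 6 lower (31.6%) of 19 tested in the knockout, and 3 (15.8%) and 8 (42.1%) in wild type. Over all tested genes the shares were 19.9% higher and 33.3% lower in the knockout, and 24.8% and 37.4% in wild type. Cdkn1b, the p27 inhibitor of resting cells, fell by 1.27 in the knockout and by 1.38 in wild type, and Gadd45b rose by 2.35 in the knockout and by 0.96 in wild type. The interaction of Gadd45b did not pass (1.39, adjusted p = 0.215 by limma).

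Markers of other cells moved with LPS beside these results. Over all tested genes, 33.3% were lower and 19.9% higher under LPS in the knockout, and 37.4% and 24.8% in wild type. Of 10 B cell markers 7 were lower under LPS in each genotype, and their sum was 166.7 to 283.2 FPKM in knockout LPS libraries, against 732.8 to 1009 FPKM in knockout PBS libraries. In wild type it was 270.0 to 377.6 FPKM under LPS, against 596.4 to 1240 FPKM under PBS. The B cell sums did not overlap in either genotype. Of 11 markers of large peritoneal macrophages 8 were lower in the knockout, and 5 were lower and 1 higher in wild type, with sums of 3172 to 3946 FPKM in knockout LPS, against 2896 to 5967 FPKM in knockout PBS libraries, and 2342 to 2976 FPKM in wild-type LPS, against 1655 to 2852 FPKM in wild-type PBS libraries. Of 9 markers of mature neutrophils 4 were lower in the knockout and 8 in wild type, with sums of 740.6 to 2710 FPKM in knockout LPS, against 1385 to 3216 FPKM in knockout PBS libraries, and 189.5 to 300.7 FPKM in wild-type LPS, against 2147 to 3387 FPKM in wild-type PBS libraries. Of 10 T cell markers tested, 3 were lower in the knockout and 10 in wild type, with sums of 10.2 to 21.2 FPKM in knockout LPS, against 20.9 to 29.6 FPKM in knockout PBS libraries, and 17.6 to 20.7 FPKM in wild-type LPS, against 43.1 to 58.9 FPKM in wild-type PBS libraries. Not every list was lower. Of 6 natural killer cell markers tested, 3 were higher and 1 lower in the knockout, and 2 higher and 2 lower in wild type. Their sums were 40.3 to 71.0 FPKM under LPS and 17.1 to 26.7 FPKM under PBS in the knockout. In wild type they were 50.4 to 70.1 FPKM under LPS and 19.1 to 56.5 FPKM under PBS. The 1 dendritic cell marker tested was higher in the knockout and did not pass in wild type. No marker of these lists was at 0 in all libraries, and the part of these cells in the mitosis results was not tested. Without the 2 libraries rich in erythroid markers, 6 members were lower under LPS in the knockout, where Ccna2, Nusap1 and Kif23 no longer passed, and 4 in wild type, where Aurkb no longer passed.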

How the data were processed

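Total RNA was extracted with a miRNA isolation kit and made into libraries by Solexa protocols, per the labels' protocols. The authors deposited 1 table per library with gene symbols and values whose unit is not stated. The deposited values were taken as FPKM because they are not whole, their totals lie between 343874 and 388129, and because Cufflinks is listed by the submitters. Per the submitters' processing notes, the authors used TopHat, Cufflinks, HTSeq and DESeq with the build GRCm38, with no version, role or order given. The use of strand is not given in the sources used here. Members with exons that overlap a gene on the other strand, such as Ccna2 with Exosc9 (510 bases), Kif20a with Cdc23 (1271), Prc1 with Rccd1 (911) and Ube2c with Tnnc2 (592), can therefore share reads with it. Sample titles of the lactoferrin knockout contain the words wild type, but their codes, descriptions and characteristics give the knockout, which was followed. Of 21878 rows, 27 had a date for a symbol and were left out.

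Genes averaging 1 FPKM or more were tested with limma 3.58.1 in R 4.3.3 on log2(FPKM + 1), with a mean for each of 4 groups, trended and robust variances, 8 residual degrees of freedom and the Benjamini-Hochberg method within each of 5 contrasts (threshold 0.05, 2-sided). The median SE was 0.141. Counting intervals cannot be given for FPKM. The alternatives were other pseudocounts, filters, scalings and models, and leaving out libraries. All 37 members could be named, and up to 4 called genes of each further list. Members and lists were chosen with earlier results of these data known. Promoter letters were searched on both strands of the first RefSeq entry per symbol. For 23 of 32 entries a short stretch just after the start was found within a GENCODE transcript of the gene. Figures were drawn in Python 3.11.15 with matplotlib 3.10.9.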

Additional observations from a re-analysis of the deposited data

How the results depend on the processing

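Each comparison was recomputed under up to 23 other settings, and no member changed the sign of a called difference. Cenpa, Racgap1 and Nek2 in both genotypes, Kif23 in wild type, and Kif20a and Prc1 in the knockout passed in every setting in which they were tested. The number of members lower under LPS in wild type was 8 without a filter and 8 with a mean of at least 0.5 FPKM, where more members are tested. In the knockout it was 10 of 37 members and 13 of 34, while 3768 of 16623 and 3537 of 10639 genes were lower in those settings, and 4590 and 4015 in wild type. With a mean of at least 3 FPKM, which leaves 5 members, it was 1 in wild type and 1 in the knockout. By leave-one-out, the libraries left out singly, there were 4 to 7 lower members in wild type and 5 to 10 in the knockout, where the count was 5 without knockout LPS replicate 2 or without knockout PBS replicate 2. Without wild-type PBS replicate 2 the median of the members in wild type was 0.04 in place of -0.17. Members higher under LPS in wild type numbered 0 to 1 when single libraries were left out. They numbered 1 with median-of-ratios scaling and 1 with upper-quartile scaling, which moved the median of all genes in wild type from -0.11 to -0.05 and 0.00, and in the knockout from -0.12 to -0.04 and -0.01. That member was Top2a each time. Between genotypes and in the interaction 0 members passed in any setting.

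Same-numbered libraries had correlations of their deviations between -0.254 and 0.193, and differently numbered ones between -0.291 and 0.383. The replicate numbers thus gave no sign of pairing, but 3 libraries a group cannot exclude it. With the replicate number as a block, 8 members were lower under LPS in the knockout, 4 were lower in wild type and 1, Top2a, was higher in wild type. Between genotypes the block gave 0. The low FPKM of the members, 12 of 37 below a mean of 1, and 3 libraries a group limit what could be detected. The lower levels of low genes rest on an unknown number of reads.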
